A study of Mus musculus with 2 samples.

Results

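Lymphoid priming genes are read here as 10 genes chosen by symbol: Dntt, Flt3, Satb1, Il7r, Notch1, Rag1, Ighm, Ebf1, Cd79a and Cd79b. All 10 were found among the 31053 gene IDs of the files. Bone marrow cells sorted as Lin- Kit+ were profiled by droplet 3' single-cell RNA sequencing from 1 wild-type and 1 GATA-1 mutation knock-in mouse library, so that marrow populations and their gene programmes could be set against each other by genotype. Lin- Kit+ cells lack mature lineage markers and carry the stem cell factor receptor Kit. GATA-1 is a transcription factor of red cells, megakaryocytes and mast cells. The labels give no age, strain, sex or number of animals, and do not name the altered residues. With 1 library per genotype no difference below has a replicate check, no test across samples was possible, and every interval covers counting error only.

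Lymphoid priming is the low, early expression of lymphoid genes in multipotent progenitors that have not yet chosen a lineage. FLT3 signalling and the chromatin organiser SATB1 act early in such cells, the IL-7 receptor and the NOTCH1 receptor then support B and T cell development, and the recombinase RAG1 and the polymerase encoded by Dntt assemble and diversify antigen receptor genes. EBF1 is a transcription factor that commits cells to the B lineage. CD79A and CD79B carry the signal of the B cell receptor, whose mu heavy chain constant region is encoded by Ighm.

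The upstream sequences of Dntt and Cd79a are shown because these genes were the most restricted members with over 100 UMIs, Dntt to lymphoid-primed cells and Cd79a to rare B-lineage cells; the pair was picked after these values were seen. Dntt lies on chromosome 19 (41029275 to 41059525, plus strand, mm10) and Cd79a on chromosome 7 (24897381 to 24902197, plus strand). Of the other members Ebf1 is on the plus strand of chromosome 11 (44617317 to 45008091), and the rest are on minus strands: Flt3 on chromosome 5 (147330741 to 147400489), Satb1 on 17 (51736187 to 51833290), Il7r on 15 (9505788 to 9530176), Notch1 and Rag1 on 2 (26457903 to 26516663 and 101638282 to 101649501), Ighm on 12 (113418558 to 113422730) and Cd79b on 11 (106311341 to 106314762). Both sequences are RefSeq's for GRCm38.p6, plus strand, 5′ to 3′, and end at the base before the annotated gene, at chr19:41029025-41029274 for Dntt and chr7:24897247-24897380 for Cd79a. Capitals mark an E-box, CAGGTG, on either strand.
Dntt: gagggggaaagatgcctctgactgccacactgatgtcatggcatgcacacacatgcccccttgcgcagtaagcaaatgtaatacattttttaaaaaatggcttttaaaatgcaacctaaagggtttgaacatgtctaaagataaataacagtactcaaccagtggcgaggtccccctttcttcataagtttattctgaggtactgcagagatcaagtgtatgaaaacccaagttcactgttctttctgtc
Cd79a: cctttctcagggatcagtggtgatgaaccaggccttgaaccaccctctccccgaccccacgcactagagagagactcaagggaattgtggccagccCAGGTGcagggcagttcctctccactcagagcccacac
The E-box of Cd79a starts 154 bases before the RefSeq start site. That site lies inside the annotated gene, past the end of the 134 bases shown. The letters CAGGTG were in the 250 bases before 17.2% of 32851 RefSeq starts and, among the 8 members with an entry, also before Rag1 and Satb1. Another 6 motifs were searched on both strands. ATGCAAAT, TGTGGTTT, TCCC followed by GGGA with 2 bases between, and its shorter form CCCNNGGGA were found before no member, and before 1.601%, 1.49%, 0.779% and 5.598% of all starts. TGGGAA stood before Ebf1, Rag1 and Satb1 (21.6% of all starts), and CCC followed by GGGA with 3 bases between before Notch1 (5.15%). The 3 searches that contain GGGA are spacings of the EBF motif and overlap in their letters. These matches describe letters only.

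Of 7471 barcodes in the wild type and 6640 in the knock-in, 5489 and 5491 were kept, with a median of 9635 and 5280 UMIs per cell. A UMI tags 1 captured RNA molecule, and a level is given as CPM, a gene's UMIs scaled to a total of 1000000 UMIs of the cells compared. The libraries shared 10 barcodes. Cells were grouped into 25 clusters without using the 10 members, and clusters were named from marker lists, so that "lymphoid-primed" means lymphoid-primed-like by those markers. The lymphoid-primed class held 645 wild-type and 647 knock-in cells, 11.8% (10.9 to 12.6) and 11.8% (10.9 to 12.7) of each library. How cells were joined and named was settled after the resulting classes had been seen, and the share ranged from 3.72% to 19.0% in wild type and from 2.31% to 20.7% in the knock-in over the alternatives, so it is no measure of the size of this population. Of the class's 15 markers 14 had UMIs in wild type and 13 in the knock-in. The class also carried granulocyte genes: the 12 neutrophil markers summed to 2313 and 1955 CPM there, against 1759 and 1666 CPM for the lymphoid-primed markers, and most of it was Mpo (1905 and 1666 CPM). The summed naming markers did not set the class apart from stem and multipotent cells, where they reached 1637 and 1659 CPM. The stem markers did, with 980 and 926 CPM in lymphoid-primed cells and 2237 and 2642 CPM in stem and multipotent cells. The libraries stood apart in other classes: the largest erythroid cluster held 941 knock-in and 0 wild-type cells and the next 831 wild-type and 6 knock-in cells, while the 2 lymphoid-primed clusters held 441 and 204 wild-type with 520 and 127 knock-in cells. Clusters left without a name held 677 wild-type cells (12.3%) and 1475 knock-in cells (26.9%), which are in none of the classes compared. The largest of them held 17 wild-type and 1433 knock-in cells, and another held 641 and 34.

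All of the 10 genes but Rag1, which had 2 UMIs, fell into 3 patterns. Dntt, Flt3, Satb1 and Notch1 were highest in lymphoid-primed cells among the 7 classes compared, and Il7r shared this at a very low level. Ebf1 and Cd79a came mostly from a few B-lineage cells: 83.3% and 89.6% of their UMIs in both libraries together, with 5.95% and 8.67% in erythroid cells. Ighm and Cd79b were spread over lymphoid-primed and myeloid progenitors, and were also high in the B-lineage cells. They differed in stem and multipotent cells. Cd79b had 41.1 and 48.2 CPM there, near its 44.2 and 49.1 CPM in lymphoid-primed cells. Ighm had 37.4 and 49.9 CPM there, below its 168 and 179 CPM in lymphoid-primed cells.

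**Figure D1:**
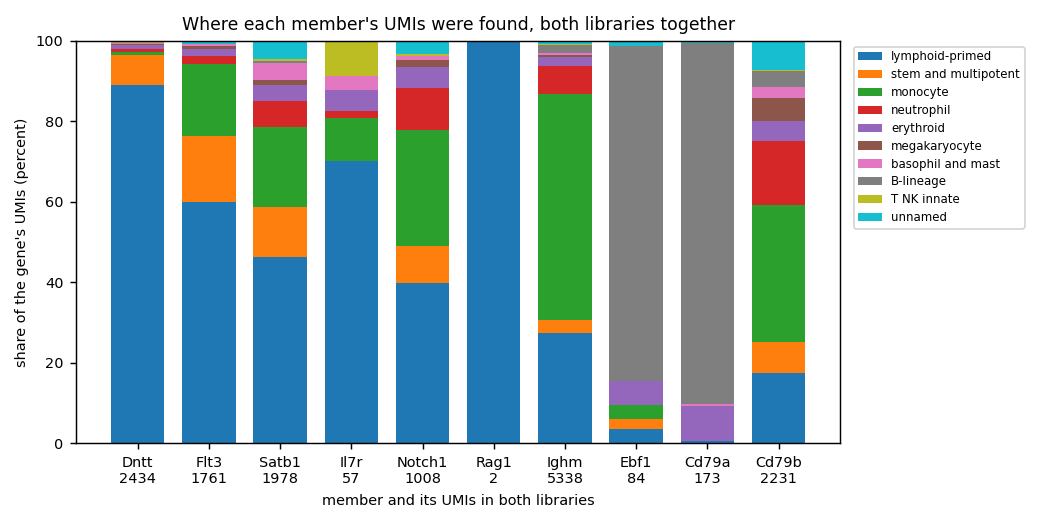
Share of each member's UMIs (percent, vertical axis) found in each cell class, both libraries together; the number under each gene is its UMIs. Dntt lay mostly in lymphoid-primed cells (88.9%), Cd79a in B-lineage cells (89.6%) and Ighm in monocyte progenitors (56.2%); Rag1 rests on 2 UMIs.

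Dntt, the terminal transferase that adds bases at antigen receptor joints, had 2434 UMIs, 88.9% of them in lymphoid-primed cells. Its level in those of the wild type was 251 CPM (237 to 265), and of the knock-in 259 CPM (243 to 277). In stem and multipotent cells it was 35.3 CPM (27.4 to 44.8) and 64.7 CPM (53.5 to 77.5), and in erythroid cells 0.692 and 0.202 CPM. Lymphoid-primed cells thus lay above the other 6 of the 7 classes compared in both libraries, and stem and multipotent cells came next among them. Detection was uneven within the class: 412 wild-type cells (63.9%, 60.03 to 67.6) and 417 knock-in cells (64.5%, 60.6 to 68.1) had no Dntt UMI. The 100 wild-type cells with 5 or more UMIs (15.5% of the class) held 79.7% of its Dntt, and the 70 such knock-in cells (10.8%) held 67.1%. The knock-in library was shallower. These counts are of unthinned cells, and the part of depth in them was not tested. With each cell thinned to 2000 UMIs, leaving out 3 and 26 shallower cells, a Dntt UMI was found in 23.8% (20.6 to 27.3) and 25.8% (22.4 to 29.4) of lymphoid-primed cells, and in 0.248% and 0.0597% of erythroid cells (28 and 14 cells left out), which stand in for background. Unthinned, the shares were 36.1% and 35.5% of lymphoid-primed cells, with medians of 7112 and 4808 UMIs per cell, and 0.914% and 0.296% of erythroid cells, with medians of 20129.5 and 14671 UMIs.

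Flt3, the receptor for FLT3 ligand, stood at 139 CPM (129 to 150) in wild-type and 104 CPM (93.8 to 115) in knock-in lymphoid-primed cells. Stem and multipotent cells had 78.5 and 74.0 CPM, against 19.9 and 23.9 CPM in monocyte progenitors and 0.976 and 0.0810 CPM in erythroid cells. Flt3 fell off more gradually than Dntt: 60.1% of its 1761 UMIs were in lymphoid-primed cells, 17.9% in monocyte progenitors and 16.2% in stem and multipotent cells. In thinned lymphoid-primed cells it was found in 158 wild-type cells (24.6%, 21.3 to 28.1) and 111 knock-in cells (17.9%, 14.9 to 21.1).

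Satb1, which organises chromatin loops, was at 107 CPM (98.2 to 117) and 109 CPM (98.6 to 121) in lymphoid-primed cells. Stem and multipotent cells had 63.4 and 65.2 CPM, against 48.2 and 45.2 CPM in basophil and mast cells, and 24.0 and 32.8 CPM in monocyte progenitors. The intervals of stem and multipotent and of basophil and mast cells overlapped in both libraries, and their difference was not tested. Notch1, the receptor that directs progenitors to the T lineage, was at 44.4 CPM (38.7 to 50.6) and 51.1 CPM (43.9 to 59.1) in lymphoid-primed cells. Stem and multipotent cells had 20.3 and 30.2 CPM and monocyte progenitors 17.2 and 25.7 CPM, 2 classes whose intervals overlapped in both libraries.

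Il7r, the receptor chain for interleukin 7, had 31 wild-type and 26 knock-in UMIs in all, of which 25 and 15 were in lymphoid-primed cells (5.02 and 4.26 CPM). None was found in stem and multipotent cells. A small class named T, NK and innate lymphoid, with 5 wild-type and 17 knock-in cells, was too small to compare. It held 1 and 4 Il7r UMIs (26.1 and 84.3 CPM), 5 and 0 of Dntt, 0 and 5 of Notch1, 2 and 7 of Satb1 and 3 and 13 of Ighm. Of the 21 wild-type cells with Il7r 16 also held Dntt, and of the 16 knock-in cells 8 did. Rag1 was at the limit of detection: 2 UMIs in 2 wild-type lymphoid-primed cells and none in the knock-in.

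**Figure D2:**
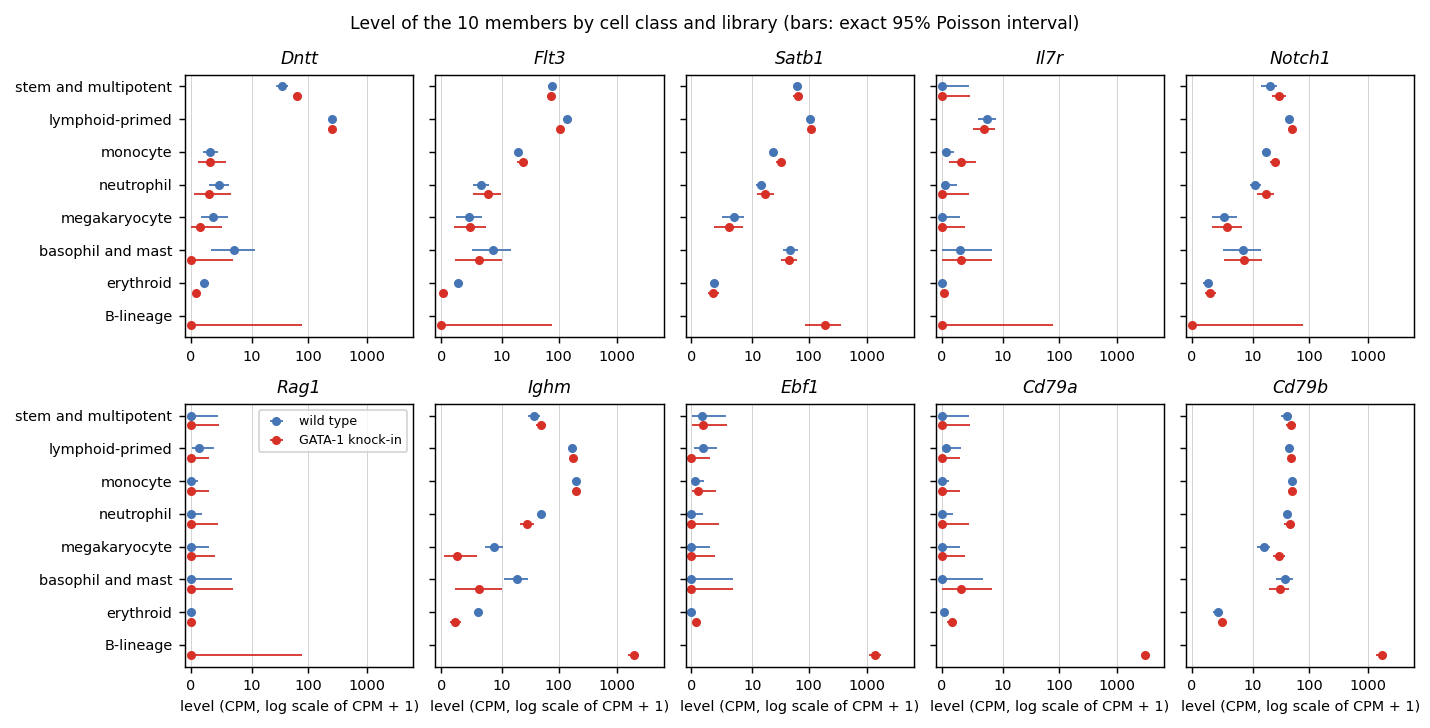
Level of each member (CPM, drawn on a log scale of CPM + 1) by cell class, wild type in blue and knock-in in red, with exact 95% Poisson intervals; the single wild-type B-lineage cell is not drawn. Dntt, Flt3, Satb1 and Notch1 peak in lymphoid-primed cells among the progenitor classes, Ighm is as high in monocyte progenitors, and Ebf1 and Cd79a stand near 0 outside B-lineage cells.

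Within the lymphoid-primed class, cells with a Dntt UMI held the other lymphoid priming genes more often than cells without, apart from Cd79b. Among thinned wild-type cells Flt3 was found in 45.8% (37.7 to 54.0) of the 153 cells with Dntt and 18.0% (14.7 to 21.7) of the 489 without. In the knock-in the shares were 35.0% (27.6 to 42.9) of 160 cells and 11.9% (9.12 to 15.2) of 461. Notch1 was found in 24.2% and 5.11% in wild type and in 21.9% and 5.42% in the knock-in. Ighm was found in 52.9% and 19.8%, and in 58.1% and 16.7%. The shares for Satb1 were 34.0% and 15.3% in wild type and 30.6% and 15.2% in the knock-in. Cd79b, whose product pairs with CD79A, did not follow: 12.4% (7.64 to 18.7) against 9.61% (7.15 to 12.6) in wild type and 10.6% (6.31 to 16.5) against 8.46% (6.08 to 11.4) in the knock-in. Il7r was found in 7 and 6 thinned cells, all with Dntt. Cells of 1 library are not replicates, so these shares describe the 2 libraries.

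**Figure D3:**
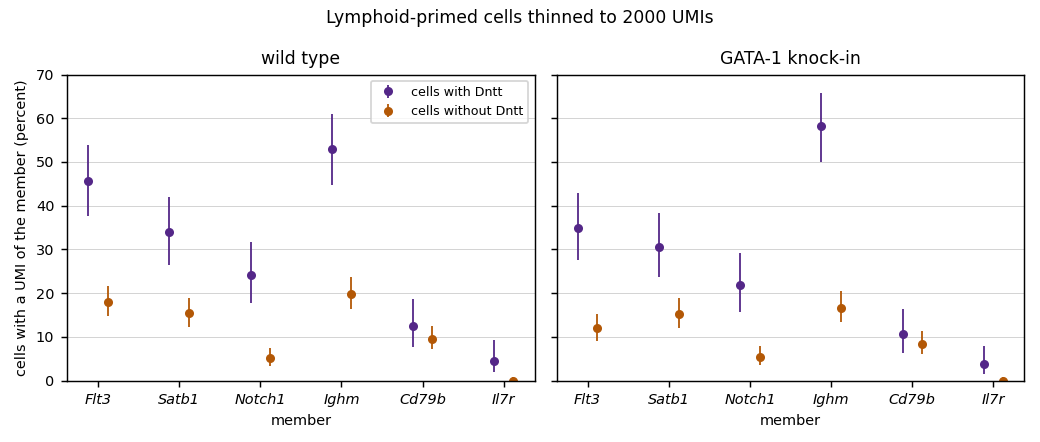
Share of lymphoid-primed cells, thinned to 2000 UMIs each, with a UMI of each member (percent, vertical axis), among cells with Dntt (purple) and without (orange), wild type left and knock-in right; bars are exact 95% binomial intervals. The purple points lie above the orange ones with separate intervals for Flt3, Satb1, Notch1, Ighm and Il7r, and with overlapping intervals for Cd79b.

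A finer clustering showed the same unevenness. At Leiden resolution 1.6 the lymphoid-primed class came as 3 clusters. One led by Wfdc17, Myl10 and Lsp1 (248 wild-type and 205 knock-in cells) held Dntt at 591 and 731 CPM, Flt3 at 267 and 207 CPM, Ighm at 317 and 384 CPM and Il7r at 9.78 and 14.1 CPM. One led by Ccl9 and Cd34 (257 and 371 cells) held Dntt at only 18.3 and 37.5 CPM, with Flt3 at 74.6 and 57.6 CPM. Stem and multipotent cells had more of both, Dntt at 35.3 and 64.7 CPM and Flt3 at 78.5 and 74.0 CPM. Ighm went the other way, at 126 and 106 CPM in this cluster and 37.4 and 49.9 CPM in stem and multipotent cells. The third, with the dividing-cell genes Pimreg and Nusap1 among its leading genes (205 and 126 cells), lay between them for Dntt at 170 and 167 CPM. Wfdc17 was also the gene whose level over the 14 class-by-library sums was most like that of Dntt (Pearson r 0.96) and of Flt3 (0.96), among 10346 genes. It is one of the markers that named the class, and was itself lower in knock-in lymphoid-primed cells (195 and 117 CPM, a log2 ratio of -0.74, -0.91 to -0.58). Shisa8 and Paqr5 followed for Dntt (0.93 and 0.92), and Itgb5 and Camk2d for Flt3 (0.95 and 0.95). Znrf1, Rnf130 and Slc43a2 were most like Satb1 (0.98, 0.96 and 0.96), and S1pr3, Milr1 and BC035044 most like Ighm (0.96, 0.96 and 0.95). The sums of 1 library share its depth, and these values are a description. For Cd79a the highest were Ccdc84, Trnp1 and Slc35d1 (0.82, 0.82 and 0.80), on only 17 UMIs of Cd79a.

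The 2 genes most tied to the B lineage were not lymphoid-primed genes in these cells. Cd79a had 1 UMI in wild-type and 0 in knock-in lymphoid-primed cells, and Ebf1 had 3 and 0. A cluster of 32 knock-in cells and 1 wild-type cell, named B-lineage from markers that include none of the 10 genes, held 144 of the 158 knock-in UMIs of Cd79a (91.1%) and 66 of the 74 of Ebf1 (89.2%). The 1 wild-type cell held 11 of 15 Cd79a and 4 of 10 Ebf1 UMIs. In the 32 knock-in cells Cd79a stood at 3018 CPM (2546 to 3554) and was found in all 32, Ebf1 at 1383 CPM (1070 to 1760), Cd79b at 1761 CPM (1404 to 2180) and Ighm at 1949 CPM (1573 to 2388). Satb1 had 9 UMIs there, and Dntt, Flt3, Il7r, Notch1 and Rag1 had none.

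Genes of mature B cells were present in these 32 cells. The light chain gene Igkc stood at 6204 CPM, the delta heavy chain gene Ighd at 692 CPM, the surface marker Ms4a1 at 1090 CPM and the MHC class II chaperone Cd74 at 16496 CPM, while of the precursor B genes Vpreb1, Vpreb2, Igll1 and Rag2 had no UMI and Vpreb3 had 12 UMIs in 8 cells (252 CPM). Ighd, Iglc2 and Cd74 were looked up after the cluster had been seen. Kit, on which the cells were sorted, also had no UMI among the cluster's 47708 knock-in UMIs, where 3 UMIs would be 62.9 CPM, and it stood at 130 CPM over all knock-in cells. The cells were shallow, with a median of 1279 UMIs. How they came through the sort was not tested.

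By a rule per cell, UMIs of at least 2 of 15 B-lineage markers, 8 wild-type cells (0.146%, 0.0629 to 0.287) and 37 knock-in cells (0.674%, 0.475 to 0.928) carried B-lineage markers. Of the 8 wild-type cells 3 were lymphoid-primed, 3 monocyte progenitors, 1 a neutrophil progenitor and 1 in the B-lineage cluster. Of the 37 knock-in cells 31 were in the B-lineage cluster and 4 were lymphoid-primed. Under the stricter cell filter, which asks for 1000 genes and 2000 UMIs, the shares were 0.126% and 0.192%. The B-lineage marker cells took 1.93% of all Dntt, 1.19% of Flt3 and 2.59% of Ighm UMIs, against 91.9% of Cd79a and 81.0% of Ebf1.

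Ighm had the most UMIs of the 10 genes, 5338. Monocyte progenitors held 56.2% of them and lymphoid-primed cells 27.5%. Monocyte progenitors of the wild type had 199 CPM (191 to 207) and those of the knock-in 196 CPM (182 to 212), above the 168 CPM (157 to 180) of wild-type lymphoid-primed cells, and overlapping with the 179 CPM (165 to 194) of knock-in ones. Unlike Ighm, its partner Cd79a was not found in monocyte progenitors. Counts at this gene do not tell transcripts of a rearranged heavy chain from unrearranged ones. Wild-type Cd79b was at 41.1 CPM in stem and multipotent cells, 49.98 CPM in monocyte progenitors and 44.2 CPM in lymphoid-primed cells. In the knock-in the same 3 classes had 48.2, 50.7 and 49.1 CPM, and erythroid cells 2.31 CPM (1.76 CPM in wild type). Basophil and mast cells had 37.2 and 30.5 CPM, and megakaryocyte cells 15.8 and 29.4 CPM.

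Ratios of the members between the genotypes were mostly small in lymphoid-primed cells. A member was called when it was past 1.5-fold and had at least 50 UMIs over both libraries. Of the 6 members with 50 UMIs none was called, against 7.28% of the 8965 genes compared. Their median log2 ratio, knock-in over wild type, was 0.07, beside 0.01 for all genes, with 5 higher and 1 lower. Flt3 was the lower one, at -0.41 (-0.60 to -0.23), from 691 and 367 UMIs. Dntt was at 0.05 (-0.08 to 0.17), Satb1 at 0.03 (-0.16 to 0.22), Notch1 at 0.20 (-0.09 to 0.49), Ighm at 0.09 (-0.06 to 0.24) and Cd79b at 0.15 (-0.14 to 0.45), all with intervals that include no difference. Flt3 was lower in the knock-in under all 14 alternatives run, from -0.60 to -0.14. Its interval included no difference under 3 of them: members allowed in clustering, the plain neighbour graph, and knock-in cells assigned to clusters made from the wild type alone. In the larger cluster of the class Flt3 was at -0.60 (-0.82 to -0.38), and in the smaller one at -0.22 (-0.59 to 0.15). Stem and multipotent cells had -0.08 (-0.43 to 0.26) and monocyte progenitors 0.27 (-0.11 to 0.64) for Flt3. Another 2 of the 14, members added to the naming markers and naming without 2 later exceptions, returned the reported ratios of all 6 members.

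For Dntt and Cd79b the ratio depended on where the class was bounded. For Dntt the ratio was 0.41 (0.29 to 0.53) when the members were allowed in clustering, in a class of 421 wild-type and 335 knock-in cells, and 0.58 (0.42 to 0.73) when knock-in cells were assigned to clusters of the wild type. It was 0.20 (0.08 to 0.33) under the looser cell filter and -0.09 (-0.36 to 0.18) on the plain neighbour graph. In the 2 clusters of the class it was -0.07 (-0.21 to 0.08) and -0.04 (-0.31 to 0.22). At Leiden resolution 1.6 the cluster led by Wfdc17 had 0.31 (0.16 to 0.45). The one led by Ccl9 and Cd34 had 1.04 (0.45 to 1.65), from 37 and 73 UMIs, and the third -0.03 (-0.30 to 0.24). Ighm in the same 3 clusters was at 0.28 (0.07 to 0.48), -0.25 (-0.52 to 0.02) and -0.09 (-0.40 to 0.21). Cd79b was at 0.51 (0.26 to 0.75) with knock-in cells assigned to wild-type clusters and at -0.44 (-1.10 to 0.19) on the plain graph. With that assignment the intervals of Satb1 (0.22, 0.02 to 0.41), Notch1 (0.31, 0.02 to 0.61) and Ighm (0.25, 0.11 to 0.39) lay above 0. It also put 26 knock-in B-lineage cells and 1 wild-type one in the class. The whole B-lineage cluster held 84 Cd79b and 93 Ighm knock-in UMIs, and the class so made held 266 and 742. The part of these cells in the ratios was not tested. With members allowed in clustering the intervals of Ighm (0.25, 0.08 to 0.41) and Notch1 (0.43, 0.12 to 0.74) also lay above 0. In stem and multipotent cells, the neighbouring class, Dntt was higher in the knock-in by 0.87 (0.43 to 1.32), from 68 and 118 UMIs, and was the 1 called member of 6 there (9.78% of 7260 genes). That value was 0.39 under the looser cell filter. In thinned cells a Dntt UMI was found in 20 wild-type (5.08%, 3.13 to 7.73) and 29 knock-in (6.18%, 4.18 to 8.76) stem and multipotent cells, with overlapping intervals, and 3 wild-type and 4 knock-in cells with 5 or more UMIs held 32.4% and 38.1% of the class's Dntt.

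**Figure D4:**
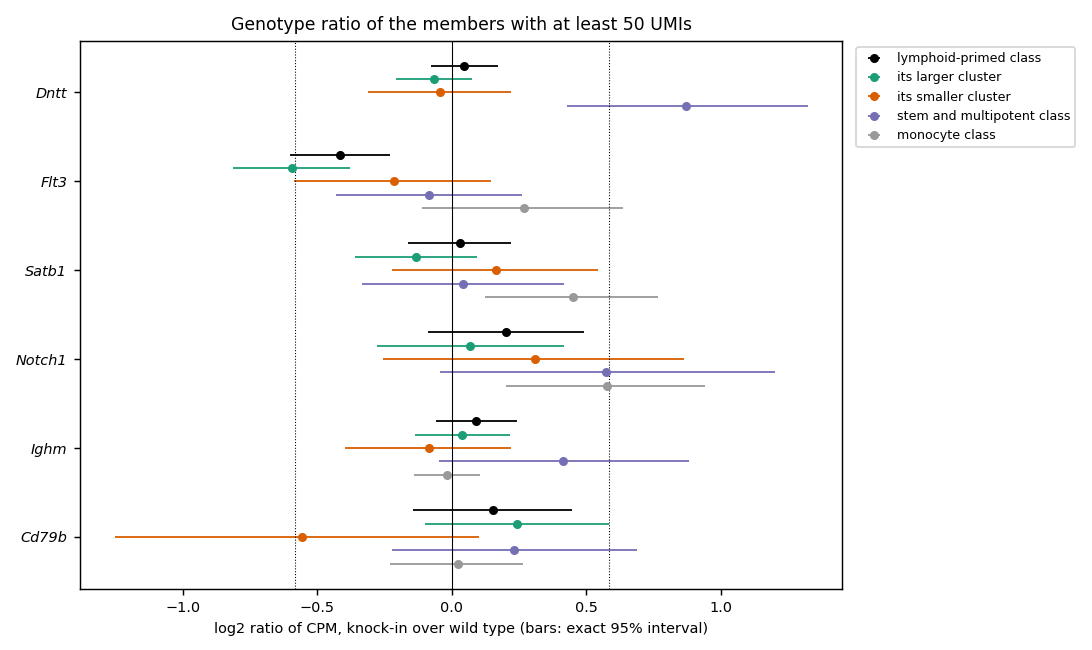
Log2 ratio of CPM, knock-in over wild type (horizontal axis), for the 6 members with at least 50 UMIs in lymphoid-primed cells, in that class, in its larger and smaller cluster, and in 2 neighbouring classes; bars are exact 95% intervals and dotted lines mark 1.5-fold. Flt3 lies below 0 in the lymphoid-primed class (-0.41) and Dntt above 0 in stem and multipotent cells (0.87).

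Over all cells 3 of the 9 members with 50 UMIs were called, against 13.2% of 12011 genes. For Cd79a the wild type had 0.233 and the knock-in 3.62 CPM, so the log2 ratio was 3.96 (3.19 to 4.83), and for Ebf1 0.155 and 1.70 CPM, with 3.45 (2.49 to 4.57). Without the 3 cells of each library with the most Cd79a its ratio was 6.58 (4.70 to 9.64). That value rests on very few wild-type UMIs, since wild type had 15 Cd79a UMIs in 5 cells, 11 of them in 1 cell. Without the B-lineage marker cells Cd79a had 4 and 10 UMIs and Ebf1 6 and 10, under the minimum of 50, and under the stricter cell filter both genes were also under it, at 42 and 33 UMIs. Ighm stood at 57.9 and 37.0 CPM, a ratio of -0.64 (-0.73 to -0.56). Cell classes differed in their shares: monocyte progenitors, the class with the highest level of Ighm among the 7, were 17.9% of the wild-type cells (16.9 to 18.9) but 6.25% of the knock-in ones (5.62 to 6.92), and within them the Ighm ratio was -0.02 (-0.14 to 0.11). It was -2.12 in erythroid cells, -0.79 in neutrophil progenitors, 0.09 in lymphoid-primed cells and 0.41 in stem and multipotent cells. The part of the class shares in the Ighm ratio over all cells was not tested. Flt3 was at 17.9 and 13.99 CPM over all cells, a ratio of -0.35 (-0.50 to -0.21), and was not called.

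In the other classes Ighm was lower in knock-in neutrophil progenitors (49.2 and 28.4 CPM, a ratio of -0.79, -1.24 to -0.37, and -1.37 under the stricter cell filter) and in erythroid cells (3.18 and 0.729 CPM, -2.12, -2.94 to -1.39). These erythroid values come from different clusters in the 2 libraries, as given above. Monocyte and neutrophil markers were also lower in knock-in erythroid cells: all 10 monocyte markers had UMIs there in both libraries and summed to 29.2 and 10.04 CPM, and the 12 neutrophil markers, of which Ltf was at 0 in wild type, summed to 209 and 66.6 CPM. Background RNA was not estimated, and its part in the Ighm values was not tested. Notch1 was called higher in neutrophil progenitors (11.03 and 17.4 CPM, a ratio of 0.65, 0.01 to 1.27), so that 2 of 4 members were called there, against 12.9% of 8044 genes. The call was lost with median-of-ratios scaling (0.52) and without the 3 cells of each library with the most Notch1 (0.52), and the gene had 37 UMIs under the stricter cell filter. Ighm was the 1 call of 4 in erythroid cells (11.6% of 10368 genes). With doublet calls kept all 4 were called there, Cd79b at 1.21, Satb1 at 0.69, Notch1 at 0.60 and Ighm at -1.64, and under the looser cell filter Cd79b was at 1.64, against 0.39 under the settings used here. In megakaryocyte cells Cd79b was the 1 call of 1 (15.8 and 29.4 CPM, 0.89, 0.36 to 1.42, against 11.8% of 8070 genes). The Cd79b call was lost under the looser cell filter (0.50), and in thinned cells Cd79b was found in 5.37% and 5.44% of megakaryocyte cells. None of 5 was called in monocyte progenitors (9.72% of 9236 genes) and none of 2 in basophil and mast cells (12.9% of 4661 genes).

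Of 47 other genes of the lymphoid programme 26 had 50 UMIs in lymphoid-primed cells, 13 higher and 13 lower in the knock-in, with a median log2 ratio of 0.00. Il2rg, the receptor chain that IL-7 shares with other cytokines, was lower (39.6 and 24.7 CPM, -0.68, -1.06 to -0.31), as was Notch2, a second NOTCH receptor (24.7 and 15.04 CPM, -0.72, -1.21 to -0.24). Lck, a T cell kinase, was the 1 gene past 1.5-fold in the other direction (6.03 and 10.2 CPM, 0.76, 0.02 to 1.51). It had only 66 UMIs and is named here after its values were seen.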

How the data were processed

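The authors deposited unnormalized UMI counts for each gene in each barcode, made with Cell Ranger 3.1.0 per the file headers; per the submitters' processing notes the build was mm10; how they chose the barcodes is not given in the sources used here. The smallest barcode had 500 UMIs. Kept barcodes had 500 or more genes, 1000 or more UMIs and a mitochondrial share of 10% or less, leaving 64350027 wild-type and 43591517 knock-in UMIs. Scrublet (scanpy 1.11.5) marked 2.59% of wild-type cells; in the knock-in it marked 0.0692%, so the top 5% of scores was removed. Both libraries were clustered without batch correction: 2000 variable genes, 30 components, 15 exact neighbours, Leiden resolution 1 (leidenalg 0.10.2). Clustering did not use the members, Gata1, sex-linked marker genes, or genes of mitochondria and ribosomal proteins. The plan also left out genes that an earlier processing had excluded; that list was not at hand, so they were used.

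The members and gene lists were chosen with earlier results of these data known. The plan fixed markers but neither the neighbour graph's weights nor a rule that names clusters. Both were settled after the resulting classes had been seen: 5 clusterings (3 of them on the graph first used) and 6 naming rules were looked at. The shared-neighbour (Jaccard) graph was kept because it gave the same clusters under different processor settings, which the graph first used did not. The naming rule was adjusted until known lineages came out under their own names. It compares marker levels with the median cluster, takes lists within 1 log2 of the best, and picks the list with the most markers among the top 10 genes. MHC class II genes were not counted for dendritic cells, and clusters under 50 cells needed 2 such markers. A sub-clustering of early cells was also tried and dropped as unstable. Co-detection with Dntt, the bins of Dntt UMIs per cell and the clusters at resolution 1.6 were added after seeing the data.

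UMIs were summed per library and class; classes needed 100 cells in each library. Intervals are exact 95% (Poisson, Clopper-Pearson, conditional binomial), computed with scipy 1.17.1; the ratio was tested on simulated data. A library at 0 was put at 3 UMIs. Named genes are the 10 members, up to 4 other lymphoid genes per direction past 1.5-fold with at least 100 UMIs, and for 5 members the 3 genes with the highest Pearson r of log2(CPM + 1) among genes with at least 200 UMIs. Positions are from GENCODE M21. The kit version named in the labels was not checked.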

Additional observations from a re-analysis of the deposited data

How the results depend on the processing

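No paired analysis was possible because there is 1 library per genotype. Of 258 alternative values for 37 single ratios 237 lay within the interval of the reported ratio, 21 did not, and none of the called ratios changed sign. In lymphoid-primed cells members added to the naming markers and naming without the 2 later exceptions returned every reported ratio. Their values are counted among the 237 and could not lie outside the interval. The share of lymphoid-primed cells stayed within its interval in both libraries under 3 alternatives (members added to the naming markers, knock-in cells assigned to wild-type clusters, naming without the 2 later exceptions) and moved under the other 8; the wild-type and knock-in shares were 17.3% and 18.2% under the stricter cell filter, 18.5% and 20.4% with doublet calls kept, 7.67% and 6.10% with members allowed in clustering, 19.0% and 20.7% at Leiden resolution 0.6, and 12.9% and 12.8% at 1.6. Under the looser filter it moved in the knock-in alone, to 10.7%. Chosen after seeing the data, the plain neighbour graph gave 3.72% and 2.31%, and naming by mean fold against all other cells 8.03% and 9.47%. Which library had the larger share thus turned with the setting. Members past 1.5-fold in lymphoid-primed cells numbered 0 as reported and 0 in all alternatives but 2: there were 2 when knock-in cells were assigned to clusters of the wild type, Ebf1 and Cd79a, where 26 of the 32 knock-in B-lineage cells fell into the class, and 1, Flt3, under naming by mean fold. Over all cells and the other classes the calls numbered 8, but 4 under the stricter cell filter, where Cd79a, Ebf1 and Notch1 (in neutrophil progenitors) had fewer than 50 UMIs and no class was named stem and multipotent; none was so named with doublet calls kept either, where the calls numbered 10. The looser filter also gave 8, of which 3 were others (Notch1 in stem and multipotent, Cd79b in erythroid and Satb1 in neutrophil cells, in place of Dntt in stem and multipotent, Notch1 in neutrophil and Cd79b in megakaryocyte cells). B-lineage marker cells were 0.0182% in wild type against 0.492% in the knock-in with at least 3 markers, 4.45% and 4.08% with at least 1, and 0.0182% and 0.565% with cells thinned to 1000 UMIs, so the gap between the libraries depended on the rule. In the knock-in they were 0.192% under the stricter and 0.935% under the looser cell filter. The number of members found in a larger share of lymphoid-primed than of erythroid cells in both libraries was 7, also after thinning. Rag1, Il7r, and Ebf1 and Cd79a outside B-lineage cells rest on few UMIs.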
